A study of Homo sapiens with 5 samples.

Results

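The housekeeping mRNA probes of the nCounter human miRNA panel are RPL19, RPLP0, GAPDH, ACTB and B2M. They were taken as all probes that the raw count files put in the class Housekeeping, which gave 5 of the 753 probes of the panel, beside 654 probes for human miRNAs, 80 for virus miRNAs, 6 positive controls and 8 negative controls. The files name each by a RefSeq transcript, NM_000981.3 for RPL19, NM_001002.3 for RPLP0, NM_002046.3 for GAPDH, NM_001101.2 for ACTB and NM_004048.2 for B2M, and without the version 5 of 5 matched the gene of the same symbol in RefSeq. The genes lie on chromosome 17 (RPL19), 12 (RPLP0 and GAPDH), 7 (ACTB) and 15 (B2M).

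The mRNAs were counted in total RNA of 5 transformed human hematopoietic cell lines, the megakaryoblastic line Meg-01, the erythroleukemic line K562, the monocytic line U937, and Jurkat and Raji as lymphoblastic lines of the T and the B lineage. RNA was extracted with Trizol and 100 ng of each line entered the assay. No treatment or time point is given in the labels. Each line had 1 sample, so no difference between lines was tested, and every 95% interval below covers counting error only, not the variation between cultures, RNA preparations or assay lanes.

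Housekeeping genes serve functions that every nucleated cell needs, and their mRNAs are often used as references when RNA amounts are compared between samples. RPL19 and RPLP0 encode proteins of the large ribosomal subunit, and RPLP0 forms the base of the stalk that recruits translation factors. GAPDH encodes a glycolytic enzyme, glyceraldehyde-3-phosphate dehydrogenase, and ACTB encodes beta-actin of the cytoskeleton. B2M encodes beta-2-microglobulin, the light chain that MHC class I molecules need to reach the cell surface, and its transcription is known to rise with interferon. In this assay a colored reporter probe is counted for each captured molecule. miRNAs are first ligated to a tag, whereas the mRNAs are hybridized directly.

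Transcripts of ribosomal protein genes are known to begin with a run of pyrimidines, the 5′ terminal oligopyrimidine tract, through which their translation is controlled by mTOR. To show this feature beside the others, 30 bases were read around each start that the RefSeq promoter table lists (GRCh38.p14), with 10 bases before the start and 20 from the start on. The longest unbroken run of C and T on the strand of the gene is in capitals.
RPL19, first start listed, chr17:39200273-39200302, plus strand: TCTCCCCTTCgcagataatgggaggagccg
RPL19, second start listed, chr17:39200313-39200342, plus strand: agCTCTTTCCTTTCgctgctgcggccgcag
RPLP0, chr12:120201092-120201121, minus strand: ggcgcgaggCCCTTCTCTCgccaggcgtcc
GAPDH, chr12:6535254-6535283, plus strand: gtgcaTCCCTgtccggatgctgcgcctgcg
B2M, chr15:44711507-44711536, plus strand: gctggcgggcaTTCCTgaagctgacagcat

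The run spanned 12 bases across the second start of RPL19 and 10 bases across the start of RPLP0, and the run of 10 bases at the first start of RPL19 ended before that start. GAPDH and B2M had runs of 5 bases. Over all listed promoters, 5.83% of windows of the same length held a run of at least 10, 2.51% one of at least 12 and 48.9% one of at least 5. No promoter was listed for ACTB, so no window is shown for it. In the 300 bases listed for B2M, the motif GAAANNGAAA, a form of the interferon-stimulated response element, was found in 2 overlapping copies on the strand of the gene and in none on the other strand. Of all promoters 3.57% held the motif on either strand. The 30 bases around it are shown with the matched letters in capitals.
B2M, chr15:44711366-44711395, plus strand: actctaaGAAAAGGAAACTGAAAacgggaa
These matches describe the letters of the reference genome and do not show what a factor does in the 5 lines.

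Raw counts summed over the human miRNA probes ranged from 66892 to 130048 per line with a median of 105224, and the positive controls, synthetic targets added in equal amounts to each sample, summed to 19329 to 26631. Raw counts were multiplied by the mean positive sum over the sum of the line, with factors of 0.904 for Meg-01, 0.915 for Jurkat, 0.934 for K562, 1.08 for Raji and 1.25 for U937, and are called scaled counts. After scaling, the 3 positive controls with at least 500 raw counts in each line differed between the highest and the lowest line by at most 1.07-fold. The most concentrated control made up 81.3 to 82.3% of the sum used for scaling, so part of this small spread follows from the scaling. The control with 195 to 254 raw counts differed by 1.27-fold, and those with fewer counts by 1.71 and 1.81-fold. These values hold the error of counting synthetic targets and do not include errors of RNA input or integrity. A background threshold was set for each line at the mean plus 2 SD of its negative controls, 34.6 to 45.9 raw counts. Of 8 markers of lineage on the panel, miR-142-3p of hematopoietic cells and the myeloid and megakaryocytic miR-223 were above the threshold in 5 of 5 lines, miR-126 in each line but Raji and the lymphoid miR-150 in Jurkat alone. The Epstein-Barr virus miRNAs BHRF1-2 and BART8 were above it in Raji alone, which carries the virus. The erythroid miR-451 and miR-144 were above it in Meg-01, with 129 and 981 raw counts, as well as in K562, with 59 and 216.

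All 5 mRNAs were far above background in every line. The lowest value was B2M in K562, which was 11.1 times the threshold of that line, and the highest was RPLP0 in Meg-01 with 131 times. Among the human miRNA and housekeeping probes, the mRNAs took places from 3 (GAPDH in Raji) to 30 (B2M in K562). The summed scaled counts of the 5 mRNAs were 15863 in Meg-01, 13342 in Raji, 11093 in Jurkat, 10302 in U937 and 7413 in K562. The sum in Meg-01 was 2.14-fold that in K562 (95% interval 2.08 to 2.20).

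RPL19 had the smallest spread on the scale of the positive controls. Its raw counts were 1824 in U937, 1895 in K562, 2522 in Raji, 2659 in Jurkat and 3545 in Meg-01. The scaled counts were 3206 in Meg-01 (95% interval 3101 to 3313), 2716 in Raji (2611 to 2825), 2434 in Jurkat (2342 to 2528), 2273 in U937 (2170 to 2379) and 1770 in K562 (1691 to 1851). Meg-01 was the highest line and K562 the lowest, with a 1.81-fold ratio (1.71 to 1.92). Jurkat and U937 stood next to each other with a ratio of 1.07 (1.01 to 1.14), no larger than the largest difference between lines of a well-counted positive control, so their order is not settled.

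RPLP0 had raw counts of 2244 in U937, 2502 in Jurkat, 2830 in K562, 3305 in Raji and 5521 in Meg-01. Scaled, these were 4993 in Meg-01 (95% interval 4862 to 5126), 3560 in Raji (3439 to 3683), 2796 in U937 (2681 to 2914), 2643 in K562 (2547 to 2742) and 2290 in Jurkat (2201 to 2382). Meg-01 stood apart from the other lines, with 1.40-fold the level of Raji, the next line (1.34 to 1.46). RPLP0 was the single mRNA of the panel that was not lowest in K562. Meg-01 over Jurkat, its lowest line, was 2.18-fold (2.08 to 2.29), and the highest over the lowest line fell to 1.55 over the lines other than Meg-01 and to 1.89 over those other than Jurkat. U937 and K562 differed by 1.06-fold (1.0004 to 1.12), within the difference seen for the positive controls.

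GAPDH had raw counts of 1382 in U937, 1646 in K562, 3483 in Jurkat, 4138 in Raji and 4195 in Meg-01. The lines fell into a high and a low set on the scaled counts, with 4457 in Raji (95% interval 4322 to 4595), 3794 in Meg-01 (3680 to 3910) and 3188 in Jurkat (3083 to 3296) against 1722 in U937 (1632 to 1815) and 1537 in K562 (1464 to 1613). The step between the sets, Jurkat over U937, was 1.85-fold (1.74 to 1.97), and no other step between neighbouring lines exceeded 1.19-fold. Raji over K562 gave 2.90-fold (2.74 to 3.07). Raji was the highest line for this mRNA alone.

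ACTB had raw counts of 1183 in K562, 1344 in Raji, 1587 in U937, 2684 in Jurkat and 3352 in Meg-01. The scaled counts fell in even steps of 1.23 to 1.37-fold from 3031 in Meg-01 (95% interval 2930 to 3136) to 2457 in Jurkat (2365 to 2551), 1977 in U937 (1881 to 2077), 1448 in Raji (1371 to 1527) and 1105 in K562 (1043 to 1170). Meg-01 over K562 was 2.74-fold (2.57 to 2.93). Raji, highest for GAPDH, was next to lowest for ACTB.

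B2M had the lowest counts and, over the 5 lines on the scale of the positive controls, the widest spread. The raw counts were 383 in K562, 791 in Jurkat, 928 in Meg-01, 1078 in Raji and 1231 in U937. On the scaled counts U937 was highest with 1534 (95% interval 1449 to 1622), followed by Raji with 1161 (1093 to 1233), Meg-01 with 839 (786 to 895), Jurkat with 724 (674 to 776) and K562 with 358 (323 to 395). K562 stood apart, and the next line, Jurkat, was 2.02-fold higher (1.79 to 2.29). U937 over K562 was 4.29-fold (3.82 to 4.82), and without K562 the highest line was 2.12-fold the lowest. U937 was thus the highest line for B2M and next to lowest for GAPDH.

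**Figure D1:**
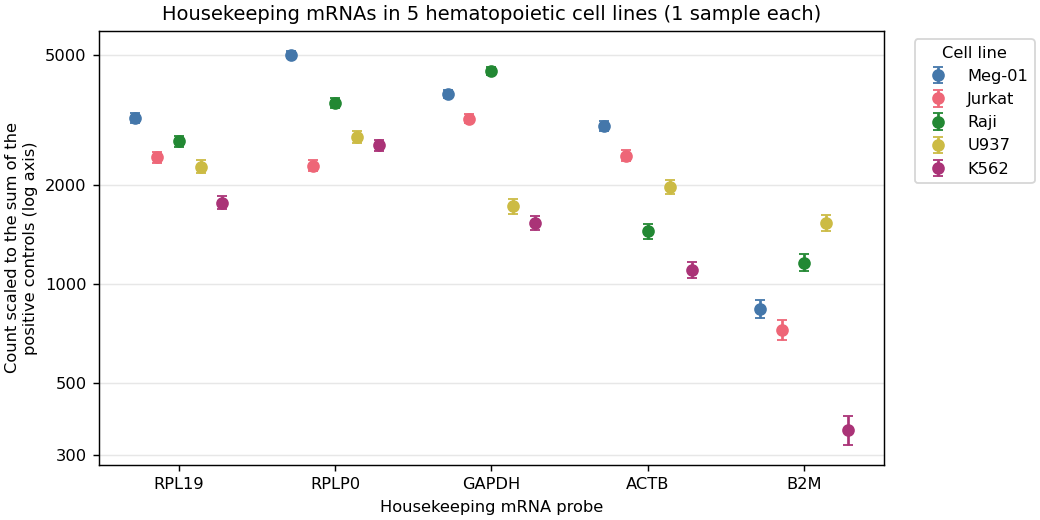
Counts of the 5 housekeeping mRNAs scaled to the sum of the positive controls (log axis), with 1 point per cell line and bars for the 95% Poisson interval of the count. K562 is lowest for RPL19, GAPDH, ACTB and B2M, and the distance from highest to lowest grows from 1.81-fold for RPL19 to 4.29-fold for B2M.

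Between neighbouring lines in the order of each mRNA, 0 of 20 intervals covered a ratio of 1. Only 2 of the 20 ratios, for RPL19 in Jurkat over U937 and for RPLP0 in U937 over K562, were within the 1.07-fold of the positive controls. This yardstick comes from the best-counted controls, which also set the scale, so a larger ratio does not by itself settle an order. B2M in K562, with 383 raw counts, lies under the minimum of 500 counts of those controls. With 1 sample per line, how far repeat cultures of a line would differ was not measured.

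The make-up of the housekeeping counts was compared as well, since shares within a line need no scaling between lines. RPL19 took a near-constant share, from 20.2% of the summed counts in Meg-01 (95% exact binomial interval 19.6 to 20.8) to 23.9% in K562 (22.9 to 24.8). RPLP0 took 20.6% in Jurkat, 26.7% in Raji, 27.1% in U937, 31.5% in Meg-01 and 35.7% in K562 (34.6 to 36.7). GAPDH took 33.4% in Raji (32.6 to 34.2), 28.7% in Jurkat, 23.9% in Meg-01, 20.7% in K562 and 16.7% in U937 (15.9 to 17.5). The probe with the most counts was RPLP0 in Meg-01, U937 and K562 and GAPDH in Jurkat and Raji, both lymphoblastic lines.

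ACTB took 10.9% in Raji (10.3 to 11.4), 14.9% in K562, 19.1% in Meg-01, 19.2% in U937 and 22.1% in Jurkat (21.4 to 22.9). The B2M probe had the fewest counts of the 5 in each line, with 4.83% in K562 (4.36 to 5.32), 5.29% in Meg-01, 6.53% in Jurkat, 8.70% in Raji and 14.9% in U937 (14.1 to 15.7). Shares and ratios between different mRNAs also carry the unequal efficiency of their probes, so a ratio is compared here between lines and not read as a number of molecules.

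**Figure D2:**
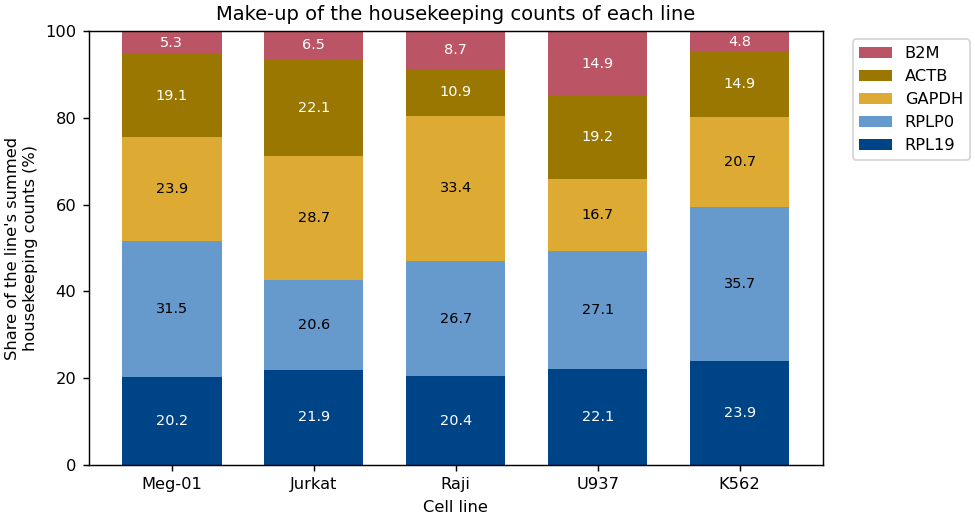
Share of each mRNA in the summed raw counts of the 5 housekeeping probes (percent, stacked to 100), with 1 bar per cell line. RPL19 stays between 20.2% and 23.9%, GAPDH is largest in Raji (33.4%) and B2M in U937 (14.9%).

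Within a line the 5 mRNAs form 10 pairs, and their ratios do not depend on scaling. Over all 5 lines the narrowest pair was that of the ribosomal protein mRNAs. RPL19 over RPLP0 was 0.642 in Meg-01, 0.670 in K562, 0.763 in Raji, 0.813 in U937 and 1.06 in Jurkat (95% interval 1.01 to 1.12). The first 4 lines lay within 1.27-fold of each other, and Jurkat widened the range to 1.66-fold (1.54 to 1.77). Without Raji, GAPDH over ACTB (1.60-fold) and RPL19 over ACTB (1.62-fold) were narrower than this pair. Without U937, GAPDH over B2M was narrower (1.18-fold). RPL19 over ACTB came next, from 0.991 in Jurkat (0.939 to 1.05) to 1.88 in Raji, a 1.89-fold range (1.74 to 2.06).

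The other 8 pairs had a range above 2-fold over the lines. The same share was not worked out for pairs of miRNA probes, so this number is not read as large or small. RPL19 over GAPDH ran from 0.609 in Raji to 1.32 in U937, and its 2.17-fold range fell to 1.73 without Raji and 1.89 without U937. RPLP0 over GAPDH ran from 0.718 in Jurkat to 1.72 in K562, a 2.39-fold range (2.21 to 2.59). RPLP0 over ACTB ran from 0.932 in Jurkat (0.882 to 0.985) to 2.46 in Raji, a 2.64-fold range that fell to 1.74 without Jurkat.

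GAPDH over ACTB, 2 of the most used reference mRNAs, was close in 3 lines and apart in the other 2. It was 1.25 in Meg-01 (95% interval 1.20 to 1.31), 1.30 in Jurkat (1.23 to 1.37) and 1.39 in K562 (1.29 to 1.50). It reached 3.08 in Raji (2.89 to 3.28) and fell to 0.871 in U937 (0.810 to 0.937). The range was 3.54-fold over the 5 lines and 1.60-fold without Raji.

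The pairs with B2M had ranges from 2.90 to 4.05-fold. GAPDH over B2M was 4.52 in Meg-01 (95% interval 4.21 to 4.86), 4.40 in Jurkat (4.07 to 4.76), 4.30 in K562 (3.84 to 4.82) and 3.84 in Raji (3.59 to 4.11), against 1.12 in U937 (1.04 to 1.21). Both mRNAs were thus in nearly the same proportion in 4 lines, within 1.18-fold, although their scaled counts differed between these lines, and U937 alone widened the range to 4.03-fold.

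RPLP0 over B2M was 7.39 in K562, 5.95 in Meg-01, 3.16 in Jurkat, 3.07 in Raji and 1.82 in U937, the widest range of the 10 pairs at 4.05-fold (3.57 to 4.60), or 2.41-fold without U937. RPL19 over B2M ran from 1.48 in U937 to 4.95 in K562, a 3.34-fold range and 2.11-fold without U937. ACTB over B2M separated Meg-01, Jurkat and K562, with 3.61, 3.39 and 3.09, from U937 and Raji, with 1.29 and 1.25. B2M counts stayed below those of each other mRNA in 5 of 5 lines.

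**Figure D3:**
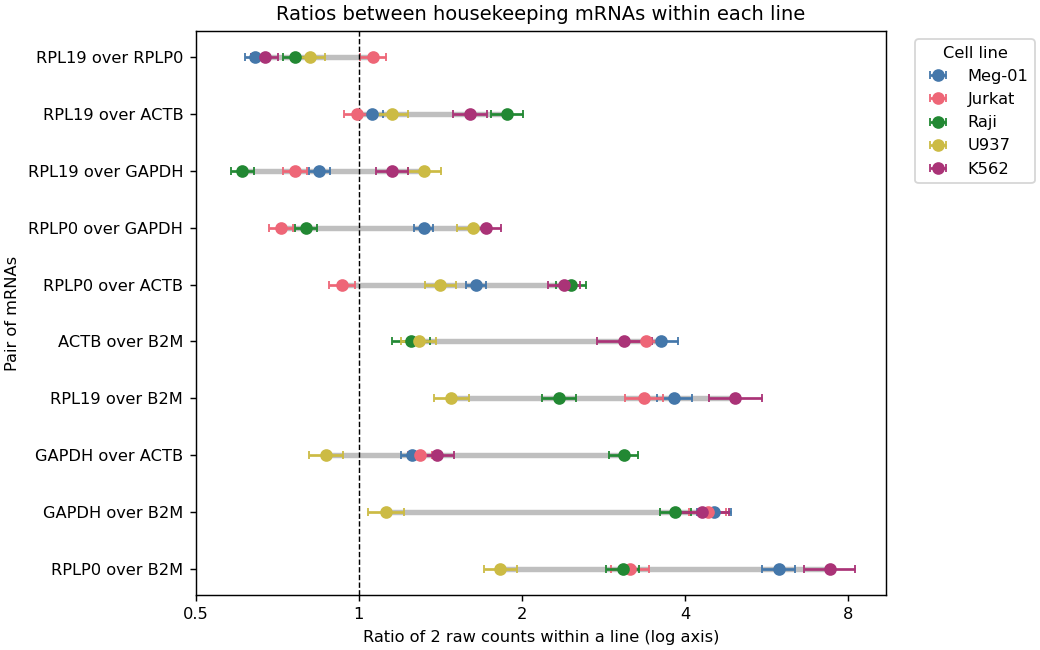
Ratio of the raw counts of 2 housekeeping mRNAs within a line (log axis), with 1 row per pair, 1 point per cell line, the 95% interval of each ratio and a gray bar from the lowest to the highest line. The rows run from the narrowest range (RPL19 over RPLP0, 1.66-fold) to the widest (RPLP0 over B2M, 4.05-fold), and U937 lies at the low end of the GAPDH over B2M row by itself.

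To set the spread between lines beside that of the miRNAs, the highest line was divided by the lowest for the 88 human miRNA probes above the background threshold in all 5 lines. For 4 of 5 housekeeping mRNAs, all but RPL19, this ratio was above 2-fold, and the same held for 60.2% of the 88 miRNA probes. The count was 3 without Meg-01 or without Jurkat. On the scale of the 100 highest miRNA probes RPL19 came to 2.09 and ACTB to 1.72, and 4 mRNAs were again above 2-fold, against 80.7% of the 88 miRNA probes on that scale. The median ratio was 2.74 for the mRNAs and 2.30 for the miRNA probes, whose ratios ran from 1.11 to 74.0. Of the 88 miRNA probes, 30 had a smaller spread than RPL19, 39 than RPLP0, 51 than ACTB, 53 than GAPDH and 67 than B2M. These places hold for counts without subtraction of background. After the threshold of each line was subtracted, 11 of the 88 miRNA probes had a smaller spread than RPL19, 16 than RPLP0, 27 than ACTB, 29 than GAPDH and 45 than B2M. The spread of the mRNAs was then 1.82-fold for RPL19, 2.19-fold for RPLP0, 2.79-fold for ACTB, 2.93-fold for GAPDH and 4.58-fold for B2M, and 86.4% of the miRNA probes were above 2-fold. miRNA probes that are below background in some line are not part of these counts.

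**Figure D4:**
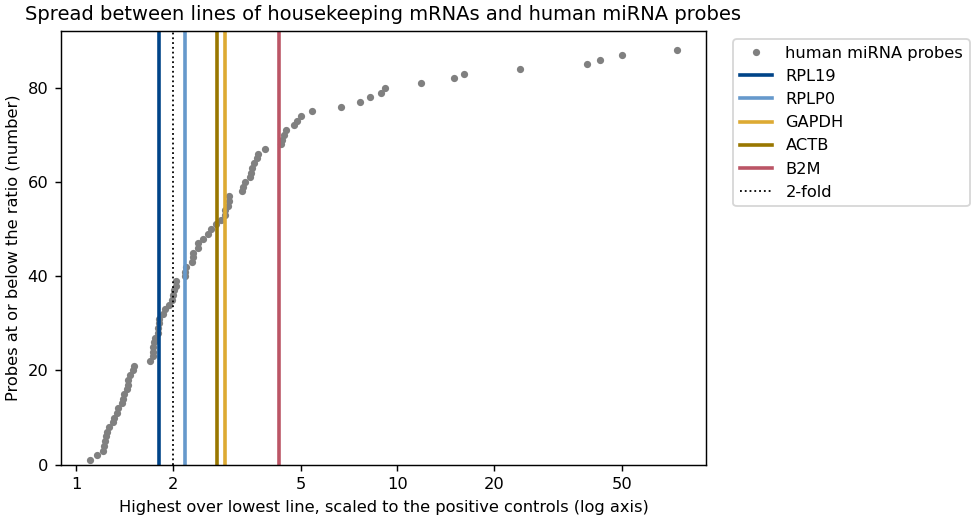
Highest over lowest line (log axis) of the 88 human miRNA probes above background in all 5 lines, sorted and plotted against their number (gray points), with a vertical line for each housekeeping mRNA and a dotted line at 2-fold. RPL19 (1.81) lies left of the 2-fold line and B2M (4.29) right of 67 of the 88 miRNA probes, on counts without subtraction of background.

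The contrast between Meg-01 and K562, lines of the neighbouring megakaryocytic and erythroid lineages, was chosen after its values were seen. On the scale of the positive controls it gave the largest median ratio of the mRNAs among the 10 pairs of lines, and on the scale of the 100 highest miRNA probes it was in place 6. All 5 were higher in Meg-01, by 1.81-fold for RPL19 (95% interval 1.71 to 1.92), 1.89-fold for RPLP0 (1.80 to 1.98), 2.35-fold for B2M (2.08 to 2.65), 2.47-fold for GAPDH (2.33 to 2.61) and 2.74-fold for ACTB (2.57 to 2.93). Of the 88 miRNA probes 61.4% were higher in Meg-01 as well. The ratio was above 2-fold for 3 of 5 mRNAs, against 12.5% of the 88 miRNA probes in the same direction. The median log2 ratio was 1.23 for the mRNAs and 0.12 for the miRNA probes.

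This contrast depended on the scale. On a scale set by the 100 highest miRNA probes through their geometric mean, as the methods of the study describe for miRNAs, the median log2 ratio of Meg-01 over K562 was 0.55 for the mRNAs and -0.55 for the 88 miRNA probes. All 5 mRNAs were still higher in Meg-01, against 18.2% of the miRNA probes, but the difference in RPL19 was 0.18 on the log2 scale. The number of mRNAs above 2-fold in Meg-01 over K562 fell from 3 to 0 of 5, against 6.82% of the miRNA probes. With that scaling K562 was the lowest line for 2 mRNAs, ACTB and B2M, whereas Raji became the highest line for 4. Scaled to the total human miRNA count, K562 was lowest for 3 mRNAs, and on raw counts for 2. Scaled to the geometric mean of the mRNAs themselves, which removes their common part, RPL19 and RPLP0 were lower in Meg-01 than in K562, by log2 ratios of -0.30 and -0.24, and 0 of 5 mRNAs were above 2-fold, against 3.41% of the miRNA probes.

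**Figure D5:**
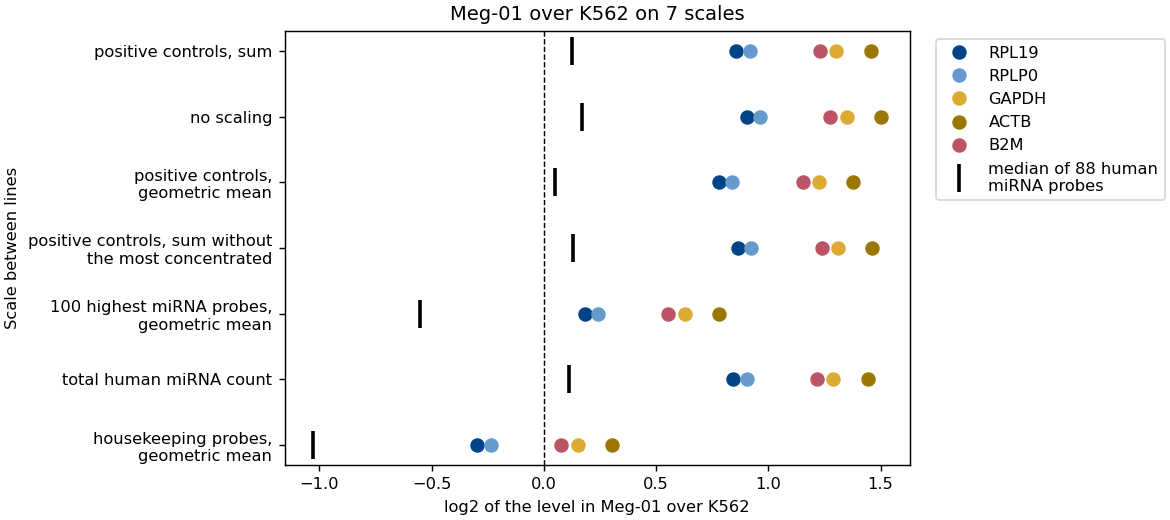
Log2 ratio of Meg-01 over K562 for each housekeeping mRNA (colored points) and the median of the 88 human miRNA probes (black bars) on 7 scales between lines. The mRNAs lie to the right of the miRNA median on each scale, by the same distance, and RPL19 and RPLP0 cross 0 only on the housekeeping scale (-0.30 and -0.24).

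The amount of housekeeping mRNA counted per miRNA count also needs no scaling. For 100 counts of human miRNA probes there were 18.5 counts of the 5 mRNAs in Raji (95% interval 18.2 to 18.9), 15.99 in Meg-01 (15.7 to 16.2), 9.32 in Jurkat (9.15 to 9.49), 8.79 in U937 (8.60 to 8.99) and 7.54 in K562 (7.37 to 7.72). Raji and Meg-01 formed a high pair and the other 3 lines a low set, with a 2.45-fold range. Background was not subtracted from the sums over 654 miRNA probes, and the negative controls averaged 20.25 to 23.1 raw counts per line. It weighs most in Raji, which had the smallest raw miRNA sum, 66892, and the highest negative mean. In Raji the scaled miRNA sum was the lowest of the lines, 72048, and in Meg-01 the scaled mRNA sum was the highest. From this ratio alone, more mRNA and less miRNA cannot be told apart.

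To find the miRNA probes whose ratio to each mRNA changed least, the log2 ratio of probe to mRNA was taken in each line. Its range over the 5 lines was used as the measure of likeness. A probe with equal scaled counts in all lines would have the range of the mRNA itself. That is 0.86 for RPL19, 1.12 for RPLP0, 1.54 for GAPDH, 1.46 for ACTB and 2.10 for B2M. A range near these values does not show that a probe followed the mRNA. Between lines miR-548g, miR-548b-3p and miR-603, named below, differed by only 1.25, 1.43 and 1.46-fold. Among the 88 probes the range was smallest for miR-379 with RPL19, 0.38, and with RPLP0, 0.39. miR-379 had 39 to 91 raw counts, 1.12 to 2.16 times the threshold, so its likeness rests on counts near the background. Of the 12 different probes among the 3 nearest of each mRNA, 9 were at most 2 times the threshold in some line. The next probes were miR-548b-3p (0.60) and miR-30e (0.65) for RPL19 and miR-548g (0.82) and miR-1308 (0.83) for RPLP0. For GAPDH they were miR-30a (1.01), miR-379 (1.12) and miR-30e (1.16).

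For ACTB the smallest range was that of miR-148b, 0.95 with 202 to 421 raw counts, then those of miR-30b (0.98) and miR-484 (0.99). For B2M the closest were miR-649 (1.02), miR-383 (1.07) and miR-660 (1.11). Among the 33 probes with at least 100 raw counts in all 5 lines, the closest was miR-30b for RPL19 (0.68), miR-603 for RPLP0 (0.93) and GAPDH (1.39), miR-148b for ACTB (0.95) and miR-29a for B2M (1.27). A range of 1 is a 2-fold change of the ratio, so no probe of this count level kept its ratio to GAPDH or B2M within 2-fold. After subtraction of the threshold from all counts, the closest of the 88 probes was another one for 4 of 5 mRNAs, miR-30b for RPL19 (0.69), miR-548g for RPLP0 (0.89), miR-30e for GAPDH (0.94) and miR-383 for B2M (0.98), and it was miR-148b again for ACTB (0.94).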

How the data were processed

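Total RNA of the 5 lines was counted on the nCounter system. The authors deposited raw counts of each probe without normalization or subtraction of background, and these counts were used. Their table of background-subtracted signals lists no housekeeping probe and was not used. The kit version of these samples is not given in the sources used here. Of the 5 lines, 1 sample each was assigned by its cell line label.

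Counts were scaled to the sum of the 6 positive controls. Intervals are exact Poisson for counts, conditional or exact binomial for ratios and shares, and on the log scale for ratios of ratios, all at 95%. Total counts per line were 105370 to 171282. No test between lines was made. Probes and miRNAs named follow a rule that took all 5 mRNAs, the 3 human miRNA probes with the smallest range of log2 ratio to each, 8 reference miRNAs and 8 lineage markers, and the closest probe under an alternative was named as well. The members and lists were chosen with earlier results of these data known. Alternatives were other scales, background subtraction and a minimum of 100 counts, and leaving out each line was added after seeing the data. Python 3.11.15, SciPy 1.17.1 and pandas 2.3.3 were used. The code for ratios and intervals was checked on simulated Poisson counts, which hold no error between cultures, RNA inputs or lanes. Promoter sequences come from RefSeq (GRCh38.p14), where a promoter was listed for 4 of the 5 genes and none for ACTB.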

Additional observations from a re-analysis of the deposited data

How the results depend on the processing

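Depth limited little here, since the lowest mRNA count was 383, but 1 sample per line leaves the error between cultures and lanes unknown. Ratios between mRNAs kept their value within the counting interval after the negative controls were subtracted, by their mean or by the mean plus 2 SD, for 10 of 10 pairs. The levels depended on the scale, and the causes were not tested. In log2 units, RPL19 in Meg-01 over K562 was 0.86, and 0.18 with the 100 highest miRNA probes and -0.30 with the housekeeping mean. RPLP0 in Meg-01 over Jurkat was 1.12, and 1.05 with the geometric mean of the positive controls, 1.21 without the most concentrated of them, 1.02 with the 100 highest miRNA probes, 1.39 with the total miRNA count and 0.67 with the housekeeping mean. GAPDH in Raji over K562 was 1.54, and in the order no scaling, geometric mean of the positive controls, 100 highest, total and housekeeping mean it was 1.33, 1.40, 1.70, 1.98 and 0.60. ACTB in Meg-01 over K562 was 1.46, and 0.78 with the 100 highest and 0.30 with the housekeeping mean. B2M in U937 over K562 was 2.10, and 1.68 with no scaling, 1.46 with the 100 highest, 1.85 with the total and 1.39 with the housekeeping mean. The number of miRNA probes above 2-fold was 53 of 88, and 76 after subtraction of the mean plus 2 SD and 23 of 33 with at least 100 counts, where fewer probes were compared. The smallest range of log2 ratio was 0.38 to RPL19 and 0.39 to RPLP0, and it was 0.68 and 0.93 with at least 100 counts and 0.69 and 0.89 after subtraction of the mean plus 2 SD. The other alternatives that kept all 5 lines left a value within its counting interval, or a number within 1.5 times.

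Leaving out each line in turn, the highest over the lowest line in log2 units was 0.50 to 0.86 for RPL19, 0.64 to 1.12 for RPLP0, 1.30 to 1.54 for GAPDH, 1.07 to 1.46 for ACTB and 1.08 to 2.10 for B2M. For the ratios within a line it was 0.34 to 0.73 for RPL19 over RPLP0, 0.69 to 0.92 for RPL19 over ACTB, 0.79 to 1.11 for RPL19 over GAPDH, 1.08 to 1.74 for RPL19 over B2M, 1.11 to 1.26 for RPLP0 over GAPDH, 0.80 to 1.40 for RPLP0 over ACTB, 1.27 to 2.02 for RPLP0 over B2M, 0.68 to 1.82 for GAPDH over ACTB, 0.24 to 2.01 for GAPDH over B2M and 1.44 to 1.53 for ACTB over B2M. No paired analysis was possible because each line has 1 sample and the labels give no replicate numbers.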

Other observations

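The choice of the housekeeping mRNAs as the scale changed miRNAs that are often used as references themselves. Of 8 such miRNAs on the panel, 7 were above the threshold in all 5 lines, and miR-30c was above it in each line but Raji. The highest line over the lowest had a median ratio of 3.65 for the 7 miRNAs scaled to the positive controls and 4.58 scaled to the geometric mean of the housekeeping mRNAs, and it was wider on the housekeeping scale for 6 of 7. Over the 88 miRNA probes the median likewise went from 2.30 to 3.06, and the share above 2-fold from 60.2% to 87.5%. The widening was thus not particular to the reference miRNAs. miR-16 went from 5.41-fold to 7.35-fold, miR-25 from 2.39-fold to 4.85-fold and miR-423-5p from 1.73-fold to 3.11-fold. let-7a was the exception and went from 8.20-fold to 5.07-fold.

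For 100 counts of the housekeeping geometric mean, miR-16 had 29.5 counts in Meg-01, 99.1 in K562, 102 in Raji, 185 in Jurkat and 217 in U937. miR-25 had 37.2 in Meg-01, 48.8 in Raji, 96.5 in U937, 122 in Jurkat and 180 in K562. Its highest line was Jurkat when scaled to the positive controls and K562 on the housekeeping scale. let-7a was lowest in K562 on both scales, with 239 scaled counts there and 1962 in Jurkat. miR-103 and miR-93 were lowest in Raji and highest in Jurkat on both scales. miR-191 was also lowest in Raji, and its scaled counts of 1454 in Jurkat and 1453 in U937 did not settle which line was highest.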
